A study of Mus musculus with 4 samples.

Results

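The genes described here are 8 genes of the vitamin K cycle and of the signalling system of the TAM receptors, which that cycle serves, among 55599 entries of the deposited expression table. They were chosen by symbol, with no expression filter. They are the carboxylase gene Ggcx, the vitamin K epoxide reductase genes Vkorc1 and Vkorc1l1, the ligand genes Gas6 and Pros1, and the receptor genes Tyro3, Axl and Mertk. The set was picked because Ggcx counts were higher in both KO libraries, so the difference of Ggcx between genotypes is given as a description and carries no test. The other 7 genes came in through their known place in the pathway.

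RNA with a poly(A) tail was sequenced from neurospheres, the suspended balls of dividing cells into which neural stem cells grow in culture. The cells were taken from the cortex at embryonic day 12.5 (C57BL/6 mice) and were used at passage 3. Wild-type (WT) neurospheres gave 2 libraries and LncBAR-KO (KO) neurospheres, labelled as lacking the long noncoding RNA LncBAR, gave 2 libraries; no treatment or other allele is named in the labels. How the KO allele was made, and whether replicates were separate embryos or cultures, is not in the labels, so p-values measure only a spread between libraries that may be technical.

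Gamma-glutamyl carboxylase, the product of Ggcx, is an enzyme of the endoplasmic reticulum that turns glutamate residues of target proteins into gamma-carboxyglutamate (Gla) and oxidises vitamin K hydroquinone to the epoxide as it does so. VKORC1, the target of warfarin, and its paralog VKORC1L1 reduce the epoxide back, and so keep the cycle running. GAS6 and protein S, the product of Pros1, each carry a Gla domain that binds phosphatidylserine on membranes when it is carboxylated. They bridge such membranes to the receptor tyrosine kinases TYRO3, AXL and MERTK, known in the nervous system for roles in cell survival, myelination and the clearance of dying cells.

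The sequence before the start of transcription is shown for the carboxylase Ggcx and for the reductase Vkorc1, the enzymes of the cycle with the lowest FPKM. Each is the 250 bases before the RefSeq start (GRCm38.p6, the assembly called mm10), read 5′ to 3′ on the strand of the gene. Capitals mark matches, as read or as the reverse complement, to the GC box GGGCGG, to the CCAAT box and to CCGGAA, the core bound by ETS factors. No matches overlap.
Ggcx, chr6:72414058-72414307, plus strand: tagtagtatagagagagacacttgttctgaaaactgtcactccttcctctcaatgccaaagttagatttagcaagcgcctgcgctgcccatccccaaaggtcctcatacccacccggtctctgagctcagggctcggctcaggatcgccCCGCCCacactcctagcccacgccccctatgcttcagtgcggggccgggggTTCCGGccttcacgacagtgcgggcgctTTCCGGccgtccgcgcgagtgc
Vkorc1, chr7:127895618-127895867, minus strand: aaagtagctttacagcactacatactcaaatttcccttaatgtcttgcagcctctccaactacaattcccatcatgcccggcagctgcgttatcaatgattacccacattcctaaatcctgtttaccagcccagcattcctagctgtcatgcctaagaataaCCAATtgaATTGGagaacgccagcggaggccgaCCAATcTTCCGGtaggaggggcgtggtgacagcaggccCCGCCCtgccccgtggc
The Ggcx stretch held 1 GC box, 2 CCGGAA matches and no CCAAT, while the Vkorc1 stretch held 1 GC box, 1 CCGGAA match and 3 CCAAT matches. Neither held TATAAA on either strand. Of 32851 such stretches in the RefSeq table, 32.7% held a GC box, 33.8% CCAAT and 12.4% TATAAA, and 3952 held CCGGAA. Ggcx and Vkorc1 were the members with a CCGGAA match, and Vkorc1 and Vkorc1l1 those with CCAAT. Every member had at least 1 GC box, with 5 before Vkorc1l1 and 5 before Pros1. The share of G and C was 61.2% before Ggcx, 51.6% before Vkorc1 and 81.2% before Vkorc1l1, against a median of 52.4% over all stretches. These letter matches describe the sequence and no factor was measured here.

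Levels between genes are compared in the authors' FPKM, which divides by gene length. The 8 genes ranged over a wide span. Gas6 was highest, at 55.1 and 62.8 FPKM in WT against 58.6 and 61.4 in KO (replicate 1 first, here and below), a mean of 59.5 ± 3.39 (SD, n = 4 libraries) that lay above 96.9% of 21836 protein-coding genes. Tyro3 (32.6 ± 2.43) and Pros1 (32.2 ± 1.44) followed, and their ranges over the libraries overlapped. Vkorc1l1 came next at 11.1 ± 0.809, then Axl at 4.22 ± 0.418 (SD, n = 4 each). Mertk (2.63 ± 0.471) and Vkorc1 (2.23 ± 0.202) had overlapping ranges. Ggcx was lowest in each of the 4 libraries, KO libraries included. Apart from the 2 overlapping pairs named, the ranges of neighbours in this order did not overlap.

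**Figure D1:**
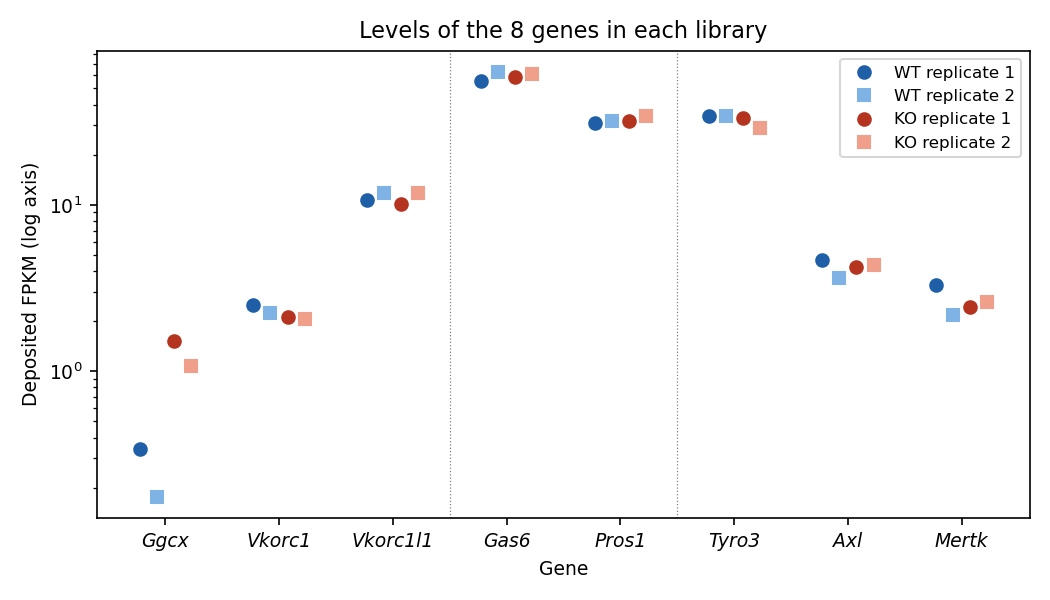
Deposited FPKM (log axis) of each gene in the 2 WT and the 2 KO libraries, one point per library; dotted lines separate enzymes, ligands and receptors. Ggcx sits lowest in every library and is the gene whose KO points stand clearly apart from its WT points, while Gas6 lies between 55.1 and 62.8 FPKM in all of them.

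Over the whole table of 55599 entries, 16021 genes had enough counts to be tested. Library totals ran from 17244057 to 18280445 counts. In edgeR's quasi-likelihood test of KO against WT, 10 genes fell under the adjusted p threshold of 0.05, with 5 of them higher in KO and 5 lower. A single one of the 10, Dpysl4, lay on chromosomes 1 to 19. Xist had counts of 36766 and 31563 in WT against 7 and 4 in KO, and the Y-linked genes Ddx3y, Eif2s3y, Kdm5d and Uty had 0 counts in both WT libraries and 517 to 1847 in KO, so genotype and a sex-chromosome difference cannot be told apart in any comparison below. All 8 genes are autosomal. No entry was named LncBAR, so the KO labels were not checked against their target. Emx2, Lhx2 and Pax6, which mark cells of the dorsal forebrain, had between 560 and 1297 counts in every library. Their mean FPKM was 10.8, 15.3 and 4.10. They belong to a list of 10 neural stem cell and cortex markers, of which 10 were tested and 0 passed in edgeR. Hes5 had the fewest counts of that list, 89 to 180.

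Ggcx (ENSMUSG00000053460, chromosome 6 from 72414308 to 72430712, mm10, plus strand) had counts of 20 and 10 in WT against 86 and 63 in KO. Both KO libraries were above both WT libraries, which is the pattern the gene was chosen for. As CPM, counts normalised to the scaled library size, these were 1.11 and 0.576 in WT against 4.93 and 3.52 in KO, with means of 0.844 ± 0.380 and 4.22 ± 0.997 (SD, n = 2 each). The fitted ratio of KO to WT was 4.95, a log2 fold change of 2.31, and the authors' deposited table lists 2.32. Exact 95% Poisson intervals were 12.2 to 30.9 and 4.80 to 18.4 counts in the WT libraries and 68.8 to 106 and 48.4 to 80.6 in the KO libraries; they cover counting error only. In FPKM the gene stood at 0.341 and 0.177 in WT against 1.51 and 1.08 in KO. The WT libraries differed from each other by 0.84 on the log2(CPM + 0.1) scale, more than in 95.6% of genes tested, where the median gene differed by 0.13. The KO libraries differed by 0.47, more than in 87% of genes. On the log2(FPKM + 1) scale, which compresses low values, the difference of KO from WT was 0.86.

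GENCODE M21 lists 5 transcripts of Ggcx, of which 1 is protein-coding and 4 are marked for nonsense-mediated decay. The table counts reads per gene, so the counts cannot be divided among them. No other annotated gene shares exon bases with Ggcx. The 3 tested genes of nearest pattern over the 4 libraries, by Euclidean distance between centred log2(CPM + 1) values, were led by Arvcf, a catenin of the p120 family on chromosome 16, with 123 and 89 counts in WT against 297 and 224 in KO (distance 0.337). The others were loci without a gene name on assembly patches, one with counts of 283 and 231 in WT against 629 and 582 in KO, the other with 25 and 27 against 112 and 70. With 4 libraries, and with a gene chosen for its difference between them, this likeness is a description only.

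Of the genes around Ggcx, Usp39, Tmem150a and Mat2a varied widely between libraries of the same genotype. Of 11 other entries within 100 kb, 5 had enough counts to be tested. Mat2a, which encodes the methionine adenosyltransferase that makes S-adenosylmethionine, lies next to Ggcx on the opposite strand, at 72432799 to 72439558. It had 13.6 and 20.3 CPM in WT against 19.7 and 39.0 CPM in KO. The groups overlapped, and KO replicate 2 stood above the other libraries. Usp39, encoding a component of the spliceosome, had 5.84 and 12.1 CPM in WT against 10.9 and 2.57 CPM in KO, so that the lowest library and the next were of different genotypes. Its KO libraries differed more than those of 99.8% of genes tested. Tmem150a, a transmembrane protein gene, had 2.61 and 4.26 CPM in WT against 2.98 and 0.614 CPM in KO, and its KO libraries too differed more than those of 99.8% of genes. Rnf181, a ubiquitin ligase gene, lay at 1.78 to 2.53 CPM in all libraries, with overlapping groups. The gene 0610030E20Rik had counts of 8 and 7 in WT against 16 and 18 in KO, and here the groups did not overlap. Vamp8, a SNARE gene with too few counts for a test, had counts of 20 and 0 in WT against 2 and 0 in KO.

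None of the 5 tested neighbours passed over all genes in edgeR, with DESeq2 or with limma; at an unadjusted p under 0.05 edgeR had 2, Mat2a and 0610030E20Rik, against 5.61% of all genes tested. Mat2a had a log2 fold change of 0.80 ± 0.27 (SE, adjusted p = 0.846) and 0610030E20Rik of 1.17 ± 0.48 (adjusted p = 0.846). Usp39 was at -0.42 ± 0.50 (adjusted p = 0.925). Leaving out 1 library changed some of these calls in edgeR: Mat2a passed without WT replicate 2 (1.11, adjusted p = 1.59e-08) and without KO replicate 1 (1.21, adjusted p = 0.00304), and Usp39 without WT replicate 1 (-0.85, adjusted p = 0.0471). The lone library of a genotype is then taken to spread as the other genotype does. Over all alternatives the adjusted p ran from 1.59e-08 to 1.00 for Mat2a and from 0.0471 to 1.00 for Usp39. Without WT replicate 2 and without KO replicate 2 the direction for Usp39 turned, to 0.20 and 0.28. Whether the spread of these neighbours has a part in the counts of Ggcx was not tested.

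**Figure D2:**
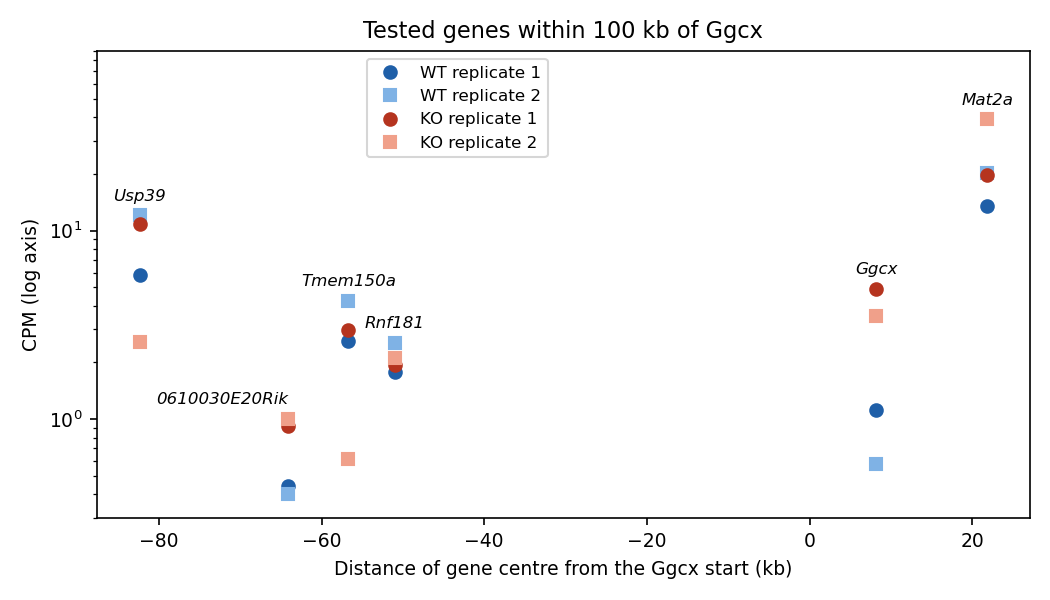
CPM (log axis) in each library of the tested genes within 100 kb of Ggcx, placed by the distance of the gene's centre from the Ggcx start in kb. Usp39 and Tmem150a fall lowest in KO replicate 2 and Mat2a is highest there, while both KO points of Ggcx (4.93 and 3.52 CPM) lie above both WT points (1.11 and 0.576 CPM).

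The reductases that recycle vitamin K did not pass the test. Vkorc1l1 (ENSMUSG00000066735, chromosome 5 from 129941970 to 129986692) had 56.5 and 62.4 CPM in WT against 53.6 and 62.0 CPM in KO. The groups overlapped, with a log2 fold change of -0.04 ± 0.10 (SE, edgeR adjusted p = 0.969). Vkorc1 (ENSMUSG00000096145, chromosome 7 from 127893063 to 127895617) had 38 and 33 counts in WT and 31 in each KO library. Both KO libraries lay below both WT libraries, by less than counting error: the exact Poisson intervals were 22.7 to 46.3 counts for WT replicate 2 and 21.1 to 44.0 for each KO library. The log2 fold change of Vkorc1 was -0.19 ± 0.31 (adjusted p = 0.946), and its 95% interval ran from -0.88 to 0.49, the widest of the 7 tested genes. Per length, Vkorc1l1 exceeded Vkorc1 by 4.26-fold and 5.24-fold in the WT libraries and by 4.82-fold and 5.72-fold in the KO libraries. This ratio is uncertain, because 401 of the 840 exon bases of Vkorc1 (47.7%) are also exon bases of Gm21974 on the same strand, an entry with 0 counts in every library, and the sources used here do not say how reads that fit both genes were counted. Vkorc1l1 turned to 0.03 without WT replicate 2 and to 0.061 without KO replicate 1.

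The ligand genes were among the well expressed genes of the neurospheres. Gas6 (ENSMUSG00000031451, chromosome 8 from 13465374 to 13494490) had counts of 2538 and 2789 in WT against 2616 and 2816 in KO. Its groups overlapped, at 151 ± 13.7 CPM in WT against 154 ± 5.19 CPM in KO (SD, n = 2 each), with a log2 fold change of 0.03 ± 0.09 (edgeR adjusted p = 0.975). Only 34 of its 2548 exon bases are shared with another gene, Tmem255b on the opposite strand, which had 18 to 32 counts. Pros1 (ENSMUSG00000022912, chromosome 16 from 62854307 to 62929346) had 127 and 130.2 CPM in WT against 130.3 and 141 CPM in KO. The KO libraries lay above the WT libraries, KO replicate 1 barely so, and the log2 fold change of 0.07 ± 0.08 did not pass (adjusted p = 0.917). Gas6 made up 64.0% and 66.4% of the summed ligand FPKM in WT against 64.9% and 64.2% in KO, with means of 65.2% and 64.5%. The WT libraries thus differed more from each other than the means of the genotypes did. The direction for Gas6 turned without WT replicate 1 (-0.066) and without KO replicate 2 (-0.01).

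Among the receptors, Tyro3 supplied most of the RNA. Tyro3 (ENSMUSG00000027298, chromosome 2 from 119797733 to 119818104) had 211.5 and 212 CPM in WT against 208 and 181 CPM in KO. Both KO libraries were below both WT libraries, KO replicate 1 by little and KO replicate 2 by more. Its log2 fold change was -0.13 ± 0.09 (SE, edgeR adjusted p = 0.861); it was -0.23 without KO replicate 1 (adjusted p = 0.343) and -0.03 without KO replicate 2, within an adjusted p range of 0.343 to 1.00 over all alternatives. Axl (ENSMUSG00000002602, chromosome 7 from 25757273 to 25788705) had counts of 424 and 321 in WT against 372 and 393 in KO, the KO libraries lying between the WT libraries. Its log2 fold change was 0.04 ± 0.13 (adjusted p = 0.975) and turned to -0.12 without WT replicate 2. Mertk (ENSMUSG00000014361, chromosome 2 from 128698956 to 128802894) had counts of 257 and 164 in WT against 186 and 204 in KO, again with the KO libraries between the WT libraries. The Mertk log2 fold change was -0.11 ± 0.20 (adjusted p = 0.949), and 0.22 without WT replicate 1. The WT libraries differed in Mertk by 0.59 on the log2(CPM + 0.1) scale, more than in 91.1% of genes tested, and the KO libraries by 0.10.

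The make-up of the receptor RNA was close in the 4 libraries. Tyro3 took 81.0% and 85.4% of the summed FPKM of the 3 receptors in WT against 83.3% and 80.7% in KO. Axl took 11.1% and 9.16% in WT against 10.5% and 12.1% in KO, and Mertk 7.83% and 5.43% in WT against 6.12% and 7.27% in KO. For each receptor the genotypes overlapped. With 2 libraries per genotype no exact test of these shares can pass 0.05, and none was made.

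**Figure D3:**
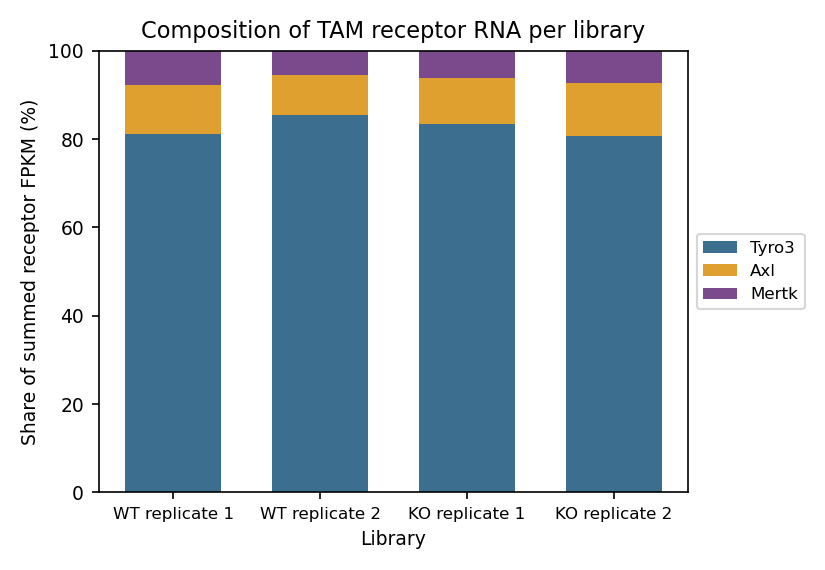
Stacked bars of the share (%) of the summed FPKM of Tyro3, Axl and Mertk in each of the 4 libraries. Tyro3 fills 80.7% to 85.4% of each bar, and the WT and KO bars overlap in all 3 shares.

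Counted together, 0 of the 7 tested genes passed in edgeR, 0 had an unadjusted p under 0.05, and DESeq2 and limma called 0 as well; over all genes tested the share past the threshold was 0.0624%. In 3 of the 7 genes the CPM of the genotypes did not overlap (Pros1 higher, Vkorc1 and Tyro3 lower in KO), as in 36.3% of all genes tested. Their median log2 fold change was -0.04, against 0.01 over all genes. The 95% intervals of the fold change of KO over WT ran from 0.888 to 1.17 for Gas6, 0.928 to 1.19 for Pros1, 0.799 to 1.05 for Tyro3, 0.838 to 1.13 for Vkorc1l1, 0.838 to 1.26 for Axl, 0.686 to 1.25 for Mertk and 0.545 to 1.40 for Vkorc1. A 2-fold change in either direction lay outside all 7 intervals, and each interval includes no change.

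**Figure D4:**
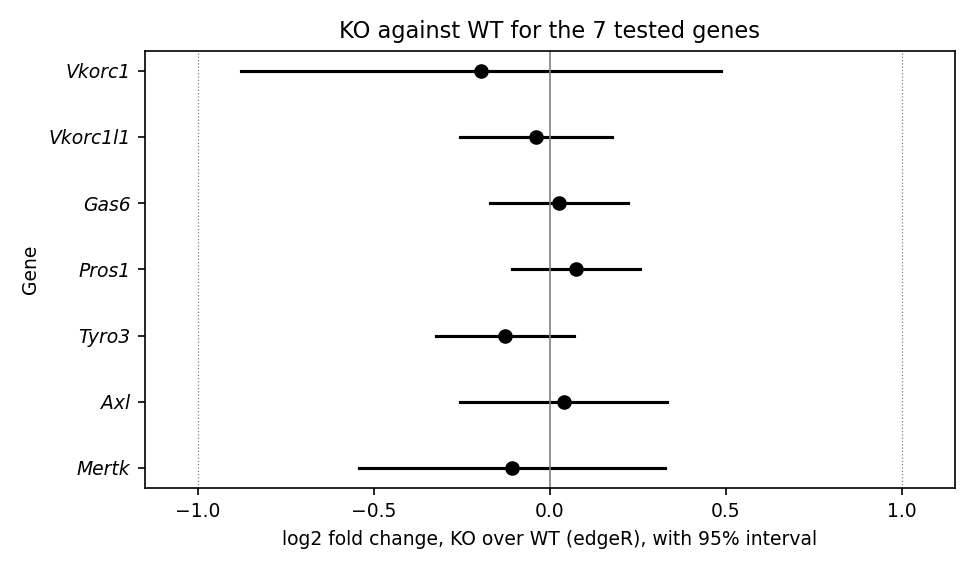
Log2 fold change of KO over WT from edgeR for the 7 genes tested (points) with 95% intervals (lines); the solid line marks no change and the dotted lines a 2-fold change. All 7 intervals cross 0 and stay inside the dotted lines, with Vkorc1 (-0.88 to 0.49) the widest.

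Other proteins that the carboxylase acts on were mostly silent or low. Of 15 further Gla protein genes, 5 had enough counts to be tested, and these were 4 of the Prrg family of membrane-spanning Gla proteins and Proz, protein Z. None passed in edgeR (0 at an unadjusted p under 0.05, and 0 calls with DESeq2 or limma), with a median log2 fold change of 0.10 against 0.01 over all genes tested. Prrg3, on chromosome X, was highest per length at 8.60 FPKM, with 52.7 and 52.0 CPM in WT against 53.4 and 52.3 CPM in KO. Prrg2 had 9.46 and 10.3 CPM in WT against 11.2 and 11.9 CPM in KO, groups that did not overlap (log2 fold change 0.23 ± 0.16, adjusted p = 0.856). Prrg4 lay at 4.36 to 7.20 CPM, with overlapping groups. The clotting factor genes F2, F7, F10 and Proc had at most 2 counts in any library. F9 had 0 counts in all 4 libraries, which allows up to 3 counts per library. Mgp, the matrix Gla protein gene, had 2 counts in WT replicate 2 and 0 elsewhere.

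Genes that supply vitamin K or reducing power were all expressed. Of 8 such genes 8 were tested and none passed (0 at an unadjusted p under 0.05, and 0 calls with DESeq2 or limma); the median log2 fold change was 0.07. The members of highest FPKM were the epoxide hydrolase gene Ephx1 (187 FPKM), the protein disulfide isomerase gene P4hb (168 FPKM) and Calu (107 FPKM), whose product calumenin is a chaperone that inhibits the carboxylase. Calu had 483 and 457 CPM in WT against 493 and 572 CPM in KO, with both KO libraries above both WT libraries (log2 fold change 0.18 ± 0.09, adjusted p = 0.846).

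Of 21 genes of other TAM ligands, receptor sheddases and signalling partners, 21 were tested and none passed (0 at an unadjusted p under 0.05, and 0 calls with DESeq2 or limma), with a median log2 fold change of -0.0022. Rac1, the small GTPase, was highest at 81.2 FPKM, with 365 CPM in each WT library and 365 and 370.3 CPM in KO. Akt1 (57.7 FPKM), a kinase downstream of the receptors, had 238 and 252 CPM in WT against 233 and 227 CPM in KO. Adam10 (41.3 FPKM), which encodes a membrane protease, lay at 199 to 207 CPM in all libraries. Tub, whose product tubby binds MERTK, had 23.8 and 22.5 CPM in WT against 31.9 and 23.8 CPM in KO, where KO replicate 2 was barely above WT replicate 1.

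Axl and Mertk are also known from macrophages and microglia, so the markers of such cells were examined, as were those of glia, neurons, vessels, connective tissue and liver. Of 12 microglia and macrophage markers, C1qa, Itgam and Tyrobp had 0 counts in every library. The summed FPKM of the 12 was 3.40 and 4.30 in WT against 5.11 and 4.47 in KO, of which Cd68 gave 3.26 and 4.06 in WT against 4.63 and 4.07 in KO. Tmem119 had 0 counts in both WT libraries and 4 and 3 in KO, and P2ry12 had counts of 5 and 4 in WT against 13 and 9 in KO. Aif1 had counts of 1 and 2 in WT against 0 and 1 in KO, and Fcrls 0 and 2 against none in KO. Of the 12, 5 had both KO libraries above both WT libraries and 0 had both below. Over all 16021 genes tested, 2920 had both KO libraries above both WT libraries and 2902 had both below, 36.3% in either direction. That share covers tested genes, whereas most of these markers had too few counts for a test. Only 1 of the 12, Cd68, had enough counts to be tested, and it did not pass (edgeR adjusted p = 0.882). The sum of the 12 was higher in both KO libraries, in KO replicate 2 by little (4.47 against 4.30 FPKM in WT replicate 2). Ggcx was chosen for higher counts in KO, so sharing that direction with it carries no information. The part of these markers' cells in the difference of Ggcx was not tested. The 7 markers of the oligodendrocyte lineage summed to 723 and 767 FPKM in WT against 763 and 780 FPKM in KO, most of it from Olig1 (520 to 576 FPKM). Of these 7, 5 were lowest in KO replicate 2, the library in which Tyro3 was lowest. Sox10, a transcription factor of the lineage, had 37.1 and 30.5 CPM in WT against 33.5 and 20.2 CPM in KO. Mbp, a myelin protein gene, had counts of 387 and 330 in WT against 358 and 243 in KO. The members of highest FPKM, Olig1 (576 FPKM) and Olig2 (178 FPKM), were instead highest in KO replicate 2. The 6 astrocyte markers summed to 329 and 291 FPKM in WT against 295 and 305 FPKM in KO, most of it from Sparcl1 (219 to 249 FPKM). Of these 6, 5 were lowest in KO replicate 2, with Gfap at counts of 341 and 253 in WT against 305 and 177 in KO. Sparcl1 was instead highest in KO replicate 2. The share of all genes tested that were lowest in KO replicate 2 was not worked out, so these counts cannot be judged against it. The part of these cell types in the lower Tyro3 value of that library was not tested. The 7 neuron markers summed to 47.4 to 48.6 FPKM, with overlapping groups. Most of it was Map2 (36.0 to 39.4 FPKM), while Stmn2 had 1 to 6 counts. The 7 endothelial markers summed to 0.901 and 1.02 FPKM in WT against 0.712 and 0.855 FPKM in KO, with Cdh5 at 0 throughout. The 6 markers of mural cells summed to 4.82 to 6.85 FPKM, most of it from Acta2 (4.15 to 6.32 FPKM). The 6 of fibroblasts and meninges summed to 1.24 to 1.96 FPKM. Both sums had overlapping groups. Of the fibroblast and meninges markers, 2 had both KO libraries below both WT libraries, Col3a1 and Lum, and 0 had both above. Col3a1 had counts of 22 and 11 in WT against 5 and 3 in KO (log2 fold change -2.01 ± 0.62, SE, edgeR adjusted p = 0.846). Lum had at most 2 counts in any library. The 6 hepatocyte markers summed to at most 0.193 FPKM, and Alb, Afp, Ttr and Serpina1a had 0 counts. In these bulk libraries fewer cells of a type and less RNA per cell cannot be told apart.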

How the data were processed

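The authors deposited 1 table with whole-number read counts per gene and library, not normalized, and FPKM values that they scaled by gene length and a library size, per the file headers. The authors' own test of KO is deposited beside them, with no tool named, as a normalised mean signal for each genotype, log2 fold change, raw p-value and adjusted p-value. The submitters' processing notes name mm10 with TopHat2 2.1.1, Cufflinks 2.2.1 and cutadapt 1.16, and give no tool for the counts. Per the labels' protocols the kit does not keep strand, so genes overlapping on opposite strands are mixed.

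Counts were tested with edgeR 4.0.16 (quasi-likelihood, TMM scaling, filterByExpr with its minimum count of 10, genotype as the only factor, R 4.3.3). Two-sided p-values were adjusted over 16021 genes (Benjamini-Hochberg, threshold 0.05). This filter replaced a mean FPKM minimum, under which Ggcx would drop out. CPM are counts normalised to the TMM-scaled library size, and an SE is the log2 fold change divided by the root of F. DESeq2 1.42.0, limma 3.58.1 on log2(FPKM + 1) or log2(FPKM + 0.1), other filters, a replicate block and leaving out each library were alternatives. The steps were tested on simulated data. The 8 genes, the gene lists and the named genes (all 8, the 3 of highest mean FPKM per list, neighbours within 100 kb of Ggcx) were chosen with earlier results of these data known; other genes named, the motifs among them, were chosen after values were seen. Spans of the 8 genes equal those of GENCODE M21, and RefSeq promoters were matched for 8 of 8. No 2 libraries agreed within sampling noise: over all pairs, chi-square divided by its degrees of freedom was 6.66 to 14.9.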

Additional observations from a re-analysis of the deposited data

How the results depend on the processing

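Of the 7 genes tested none passed an adjusted p of 0.05 under any of the 11 alternatives, and none of the 4 pathway lists gained a call. The number of genes past the threshold over the whole table was 10 in edgeR and moved to 31 with every entry of at least 1 count, to 5 in limma with a pseudocount of 1 and to 5 with a pseudocount of 0.1; leaving out 1 library gave 27 to 106. With the replicate block it was 17, and Mat2a passed there (log2 fold change 0.76, adjusted p = 0.0331). The labels do not say whether same-numbered libraries share a source. The correlation of their deviations was 0.10 in 2 genotypes, too few to decide it. Without 1 library in turn, the log2 fold change ran from -0.15 to 0.061 for Vkorc1l1, -0.066 to 0.12 for Gas6, -0.12 to 0.23 for Axl, -0.37 to 0.22 for Mertk, -1.80 to 0.28 for Usp39 and -0.32 to 0.19 for Rnf181; the cause of these turns was not tested. The median of the phosphatidylserine genes turned to 0.0074 without WT replicate 2, and that of the TAM partners to 0.013 without KO replicate 1 and to 0.0026 with every entry of at least 1 count. Vkorc1, Pros1 and Tyro3, whose genotypes did not overlap, so that leaving out a library cannot turn them, kept their direction in all 11 alternatives. For Ggcx, whose direction was fixed by how it was chosen, the log2 fold change was 0.86 to 2.86 in 10 alternatives, and no value was had at a mean FPKM of at least 1, which it does not reach. Counts of 10 to 86 limit the precision for Ggcx, and counts of 31 to 38 that for Vkorc1.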

Other observations

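Exposure and clearance of phosphatidylserine outside the TAM receptors was followed in 17 genes, of which 16 had enough counts to be tested and none passed (edgeR; 0 at an unadjusted p under 0.05, and 0 calls with DESeq2 or limma). The median log2 fold change was -0.07, with 12 of the 16 lower in KO, against 0.01 and 48.6% lower over all 16021 genes tested. Without WT replicate 2 the median turned to 0.0074. Mfge8, which encodes the secreted bridge between phosphatidylserine and integrins, was highest at 80.0 FPKM, above Gas6 in the same units. It had 412 and 381 CPM in WT and 383 and 333 CPM in KO, with overlapping groups (log2 fold change -0.15 ± 0.09, edgeR adjusted p = 0.850). Tmem30a (33.4 FPKM), a subunit of the flippases that keep phosphatidylserine inside, had 178 and 180.2 CPM in WT and 186 and 214 CPM in KO (0.16 ± 0.09, adjusted p = 0.848). Itgb5 (24.7 FPKM), an integrin subunit, lay at 84.4 to 90.5 CPM in all 4 libraries. Timd4, a phosphatidylserine receptor of macrophages, had 0 counts in every library, which allows up to 3 counts per library.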
